A study of Macaca fascicularis with 24 samples.

Results

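Transcripts of 9 complement genes were measured in thoracic aorta from cynomolgus macaques (Macaca fascicularis), comparing old animals with young ones: C3, CFB and CFD, C1R, C1S and SERPING1, C7, CD55 and CD59. They were found by gene symbol in the platform annotation of the array, which gave 14 probe sets for 9 of 11963 genes, out of 22215 probe sets that were not controls (a probe set is the group of short probes that reads 1 transcript). This lookup uses no measured value, though the 9 genes were chosen with earlier results of these data known. Of the 14 probe sets, 10 reached the median mean level over all probe sets and were tested, at least 1 for every gene, among 11108 tested in all. RNA of whole aorta was read on 24 one-colour arrays of a human design, 6 each from old males, young males, old females and young females. The labels give mean ages of 20.0 years for old males, 6.6 for young males, 21.2 for old females and 7.2 for young females, and name no treatment. They do not say whether the arrays of a group came from separate animals, so the errors and p-values measure the spread between these samples.

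Complement is a cascade of blood and tissue proteins that marks surfaces for removal and can puncture membranes. In the classical route C1q acts together with the proteases C1r and C1s, and the alternative route amplifies C3 cleavage through factor B and factor D. Both meet at C3 and end in the membrane attack complex, to which C7 belongs. C1 inhibitor (SERPING1) blocks C1r and C1s, CD55 speeds the decay of the enzymes that cleave C3, and CD59 stops the membrane attack complex from forming on host cells. The liver makes most circulating complement, and cells of connective tissue and vessel walls also transcribe several of its genes.

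The arrays were compared before any group. In 3 of 276 pairs (old females 1 and 4, young females 3 and 4, young males 3 and 4) the readings were almost alike, closer than in any other pair, and each pair was averaged and counted as 1 sample. That left 21 samples, 6 old males, 5 young males, 5 old females and 5 young females. A further 6 samples (old males 2 and 4, young male 1, old females 2 and 6, young female 3), here called the divergent samples, had median correlations with the other arrays of 0.809 to 0.8284, against 0.8786 to 0.9348 elsewhere. Their 3-prime to 5-prime beta-actin ratio, a sign of RNA quality, was 0.785 to 1.73 on the log2 scale, against -0.249 to 1.15. XIST, the RNA of the inactive X chromosome, was at 10.3 in young male 1, against 6.09 to 8.14 in the other males and 11.19 to 13.1 in females, while the Y-linked RPS4Y1 was at 11.96 there, against 12.45 to 12.95 in the other males and 6.20 to 8.34 in females. This divergent library thus lay with the males by RPS4Y1 and between the sexes by XIST. Of the tissue's defining genes, all 6 smooth muscle markers were tested, while 3 of 4 liver genes, ALB, APOA1 and TTR, lay below the median level and the fourth, SERPINA1, was tested, at 8.26 to 11.71. Levels are log2(intensity + 16) after quantile normalisation, and those of different probe sets are not set against each other.

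C3, the protein on which all complement routes converge, varied more between samples of 1 group than between the groups. Its levels were 10.69, 13.10, 8.69, 9.11, 10.70 and 12.47 in old males, against 9.70, 7.96, 13.51, 10.18 and 7.16 in young males. Levels in old females were 9.52, 13.16, 12.84, 7.03 and 13.89, against 9.77, 9.97, 14.40, 9.56 and 9.76 in young females. In old males and old females the samples were spread over the range, 4 of the 5 young females lay close together under young female 3, and young and old overlapped in both sexes. The means were 10.79 ± 1.75 in old males (SD, n = 6) and 9.71 ± 2.46 in young males (SD, n = 5), while old females averaged 11.29 ± 2.91 and young females 10.69 ± 2.08 (SD, n = 5 in both). The log2 change was 1.09 ± 1.26 (SE) in males, a 2.13-fold difference with a 95% interval of 0.349 to 13.0, and 0.60 ± 1.31 in females, with an interval of -2.13 to 3.32 on the log2 scale. Neither passed the test (limma, adjusted p = 1 in males and 0.9991 in females), and the intervals leave room for large differences either way.

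CFB encodes factor B, the protease that joins cleaved C3 in the alternative route. Old males had levels of 9.999, 11.90, 10.47, 8.55, 12.08 and 11.11, against 9.19, 9.34, 14.27, 9.16 and 8.29 in young males. Old females had 8.52, 11.03, 13.05, 9.30 and 12.03, against 9.47, 10.68, 14.86, 8.95 and 12.04 in young females. The highest levels of the 21 samples were in young female 3 and young male 3, while 4 of the 5 young males lay below all old males but old male 4. The log2 change was 0.64 ± 1.09 in males (1.55-fold, 95% interval 0.324 to 7.45) and -0.42 ± 1.14 in females (0.750-fold, 0.146 to 3.86), both with overlap. Another CFB probe set was dim and spanned only 4.94 to 6.13.

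**Figure D1:**
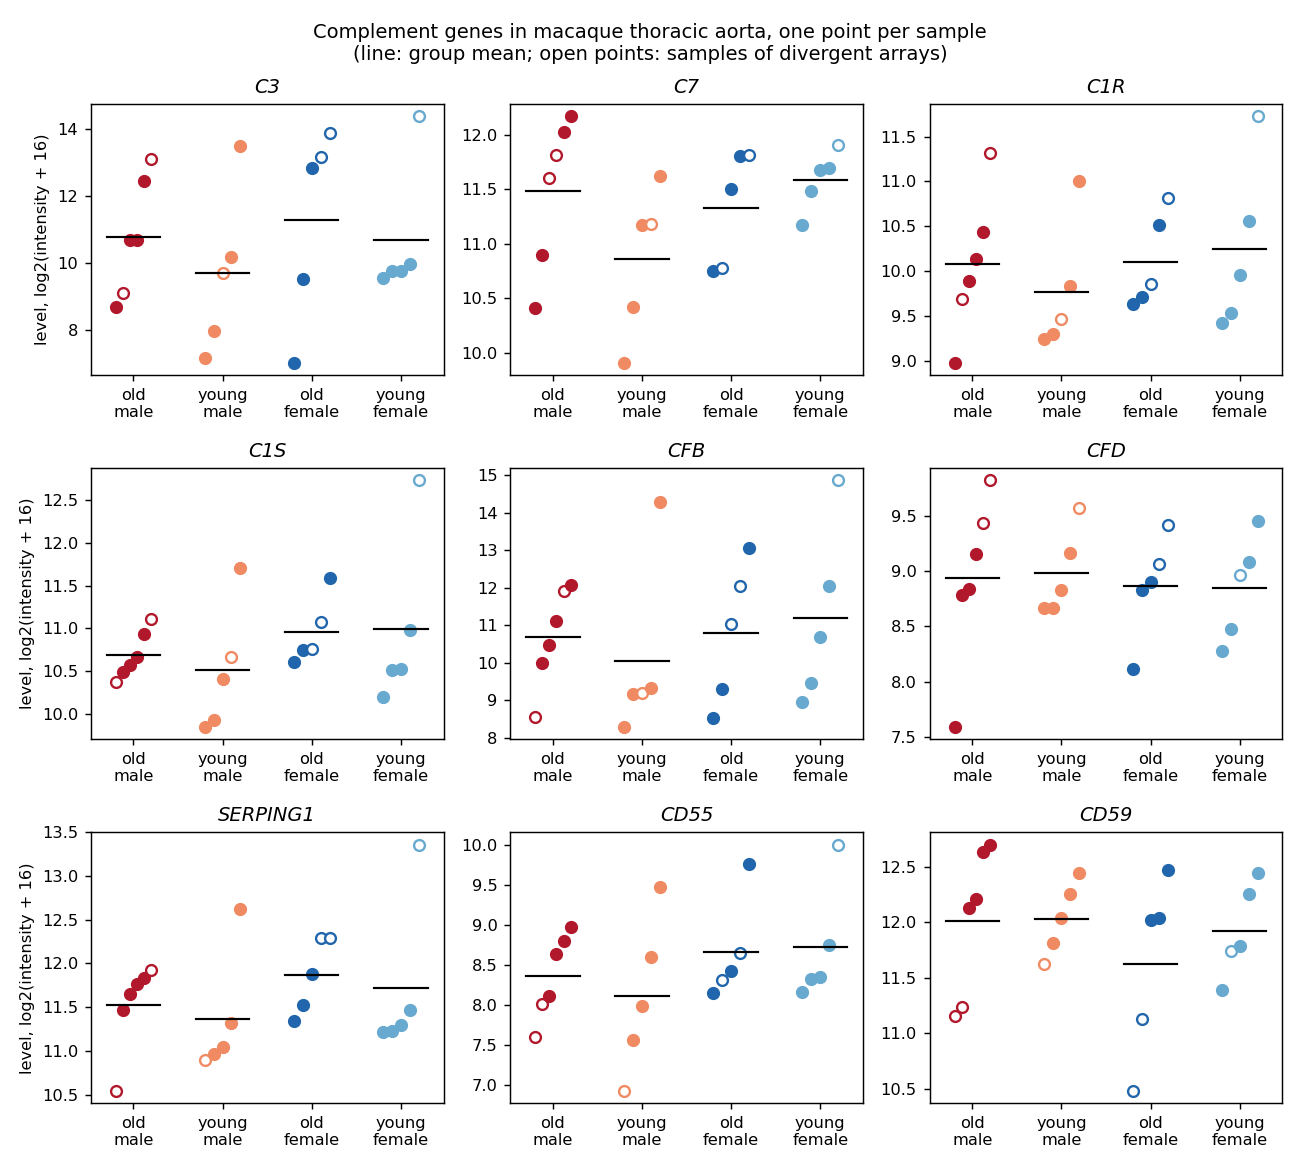
Level of each complement gene in every sample, as log2(intensity + 16) after quantile normalisation, with old animals left of young ones in each sex; points are samples (open for divergent ones) and lines are group means. C3 runs from 7.03 to 14.40 and CFB from 8.29 to 14.86, and old and young overlap in every panel.

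The reach of C3 and CFB was unusual for this data set. The SD within groups was 2.31 for C3, rank 3 of the 11108 tested probe sets, and 2.001 for CFB, rank 20, against a median of 0.46 over all tested probe sets. Between the lowest and the highest sample lay 165-fold for C3 and 94.8-fold for CFB, and in the deposited intensities C3 ran from 107.8 to 23725.1 and CFB from 272.1 to 38288.4. Without the divergent samples the SD was 2.10 for C3 (rank 13) and 1.95 for CFB (rank 18), with a median of 0.313 over all. The near-identical arrays had C3 at 23725.1 and 23479.5 on young females 3 and 4, and at 549.2 and 925.6 on old females 1 and 4. CFB was at 21857.5 and 20759 on young males 3 and 4. As these arrays were paired because their readings were alike, the values are no separate check of the spread. Other tested members spanned 4.63-fold to 8.51-fold, and the dimmer of the CD59 probe sets that were tested only 1.59-fold.

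**Figure D2:**
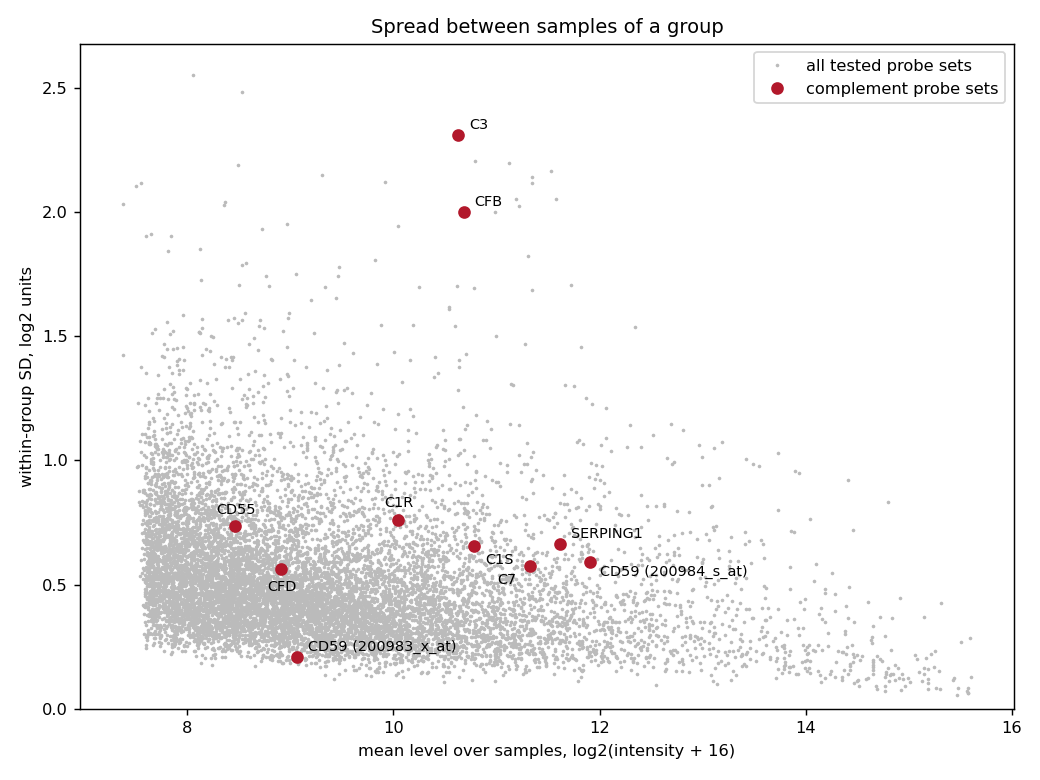
SD within groups (vertical axis, log2 units) against the mean level over samples (horizontal axis, log2(intensity + 16)) for all 11108 tested probe sets in grey and the complement probe sets in red. C3 at 2.31 and CFB at 2.001 lie near the top, and the other members lie between 0.21 and 0.76.

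CFD encodes factor D, the serine protease that cleaves factor B and is known from human tissue as adipsin, a product of fat cells. It did not share the spread of its substrate. Its levels were 7.59, 9.83, 8.79, 9.44, 8.84 and 9.16 in old males, against 9.57, 8.67, 9.17, 8.83 and 8.67 in young males. They were 8.83, 9.06, 8.90, 8.11 and 9.42 in old females, against 8.48, 9.09, 8.96, 9.46 and 8.28 in young females. The 4 group means lay between 8.85 and 8.98, and the change was -0.04 ± 0.32 in males and 0.01 ± 0.34 in females. Levels of adipocyte markers (4 of 8 tested, with ADIPOQ, PLIN1, LEP and GPD1 below the median level) averaged 10.84 in old males, against 9.16 in young males, and 9.99 in old females, against 10.07 in young females. With that mean as a covariate the log2 change in males was 0.22 for C3, 0.17 for CFB, 0.036 for C1R and 0.39 for C7, against 1.09, 0.64, 0.30 and 0.63 without it. C1S had -0.0027, against 0.18. Larger in size with the covariate were CFD (-0.28, against -0.04), CD55 (0.55, against 0.25) and the brighter CD59 probe set (0.46, against -0.02). SERPING1 had 0.17, against 0.16, and the dimmer tested CD59 probe set 0.046, against -0.05. In bulk tissue, fewer cells of a type and less RNA per cell cannot be told apart.

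C1R and C1S encode the proteases of the classical route and SERPING1 their inhibitor, and C1S and SERPING1 were highest in the same young samples as CFB. C1R was at 9.89, 11.32, 8.98, 9.69, 10.13 and 10.44 in old males, against 9.46, 9.84, 11.01, 9.30 and 9.24 in young males. Old females had C1R levels of 9.71, 9.85, 10.51, 9.64 and 10.81, against 9.96, 10.56, 11.73, 9.42 and 9.54 in young females. Old male 2 had the top C1R level among males and young female 3 among females. C1S stayed between 10.37 and 11.11 in old males, against 9.85 to 11.71 in young males, and between 10.61 and 11.59 in old females, against 10.20 to 12.73 in young females. Young male 3 and young female 3 held the C1S maxima. The change was 0.30 ± 0.43 for C1R and 0.18 ± 0.37 for C1S in males, and -0.14 ± 0.44 and -0.03 ± 0.39 in females.

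SERPING1 levels were 11.83, 11.92, 11.47, 10.54, 11.76 and 11.65 in old males, against 10.90, 11.32, 12.62, 10.96 and 11.04 in young males. In females they were 11.34, 12.29, 11.88, 11.52 and 12.29 in old animals, against 11.47, 11.21, 13.36, 11.23 and 11.30 in young ones. In each sex 4 of 5 young samples lay in a narrow band, with sample 3 above every old animal. The change was 0.16 ± 0.37 in males and 0.15 ± 0.39 in females. Young male 3 and young female 3 were each the highest of their group for 7 of the 9 genes. Against the mean of the rest of its group, young male 3 had 27.1-fold more C3, 38.7-fold more CFB, 2.81-fold more C1S and 2.96-fold more SERPING1. Young female 3 stood 24.9-fold, 23.7-fold, 4.52-fold and 4.15-fold above its group for the same genes.

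C7, which joins C5b and C6 in the growing membrane attack complex, had the smallest p of the members between old and young, in males, but did not pass the test. Its levels were 12.17, 11.81, 10.41, 11.60, 10.90 and 12.02 in old males, against 11.18, 9.91, 11.62, 11.17 and 10.42 in young males. They were 11.50, 10.78, 11.80, 10.75 and 11.81 in old females, against 11.69, 11.17, 11.90, 11.48 and 11.68 in young females. In males 3 of 6 old samples lay above all young ones and old male 3 lay near the bottom. The change was 0.63 ± 0.33 in males (1.54-fold, 95% interval 0.963 to 2.47, limma adjusted p = 1) and -0.25 ± 0.34 in females. The difference between the changes was 0.88 ± 0.47 (limma adjusted p = 0.9998), and the exact permutation test in males gave p = 0.1645. The C7 log2 change in males was 0.84 without old male 3, 0.82 without young male 3 and 0.39 without young male 2, and none of these passed the adjusted test.

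CD55 and CD59 guard host cells against complement. CD55 levels were 8.81, 7.60, 8.64, 8.02, 8.98 and 8.12 in old males, against 6.92, 8.60, 9.48, 7.99 and 7.56 in young males. They were 8.43, 8.31, 9.76, 8.16 and 8.65 in old females, against 8.76, 8.17, 10.01, 8.36 and 8.32 in young females. Young male 3 and young female 3 again had the highest level of their sex, and the change was 0.25 ± 0.42 in males and -0.06 ± 0.43 in females. The brighter CD59 probe set was at 12.21, 11.16, 12.70, 11.24, 12.13 and 12.63 in old males, against 11.62, 12.04, 11.81, 12.44 and 12.25 in young males. Old females had 12.47, 11.13, 12.04, 12.02 and 10.48, against 12.44, 11.39, 11.74, 12.25 and 11.79 in young females. The lowest CD59 level belonged to a divergent sample in old males, young males and old females, and to young female 2 in young females. Its change was -0.02 ± 0.33 in males and -0.29 ± 0.35 in females, and by the dimmer tested probe set -0.05 ± 0.16 in males (0.964-fold, 95% interval 0.766 to 1.21) and -0.12 ± 0.17 in females (0.921-fold, 0.724 to 1.17). The dimmer probe set thus gave the narrowest intervals of all members. The other CD59 probe sets and another of CD55 lay below the median level.

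None of the 10 tested probe sets passed the adjusted test between old and young. In males 7 were higher and 3 lower, with a median log2 change of 0.21 over the members and -0.02 over all tested probe sets, and 0 members were called, against 2 of all 11108 (0.018%). In females 3 were higher and 7 lower, with a median of -0.09 over the members and -0.03 over all, and 0 members were called, against 0% of all. The fits over both sexes and of the difference between the sexes also called 0 members and 0% of all probe sets. At an unadjusted p under 0.05 the members again gave 0 calls in this fit, against 3.36% of all tested probe sets in males, 2.84% in females, 4.37% over both sexes and 1.94% for the difference between the sexes. Old and young overlapped for all 14 member probe sets in both sexes, while 0.666% of all tested probe sets did not overlap in males and 0.342% in females. Single-value exact permutation tests over 462 splits in males and 252 in females gave no p below 0.1645. Ordered by mean, neighbouring groups never differed by more than 0.69 of the larger of their SDs for any member probe set, and their ranges overlapped.

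**Figure D3:**
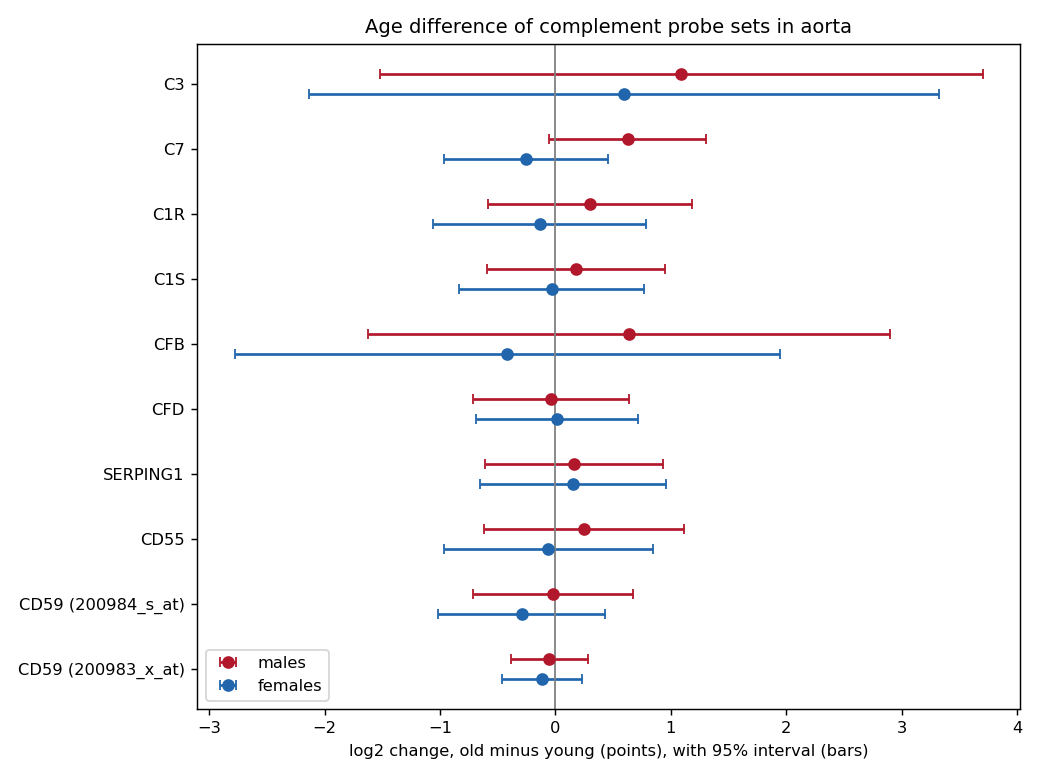
Log2 change, old minus young, of each tested complement probe set in males and in females, with 95% intervals from limma. Every interval includes 0, and those of C3 and CFB are the widest.

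The members were compared with each other as deviations from the group means over the 15 samples outside the divergent set. Of 36 pairs of genes, 15 correlated at an adjusted p under 0.05 (two-sided permutation test, 100000 resamples, Benjamini-Hochberg over the 36), and all 15 were positive. The group consisted of C3, CFB, C1R, C1S, SERPING1 and CD55, with C7 joined through C3, while CFD and CD59 were in no such pair. The permutations shuffled deviations over all samples although group means had been taken out, so correlation p-values here and below may be too small. Pairs of other genes were not counted in the same way, so the 15 of 36 have no share over all genes beside them. Whether such agreement is particular to complement genes was not tested. C1S and CFB had r = 0.840 (adjusted p = 0.00324) and rho = 0.761 (adjusted p = 0.0243), and r was 0.548 without the 2 samples farthest from the median. C3 and CFB had r = 0.767 (adjusted p = 0.00519) and rho = 0.657 (adjusted p = 0.0378), with 0.417 on leaving out such samples. C3 and C7 had r = 0.783 (adjusted p = 0.00324) and rho = 0.768 (adjusted p = 0.0243), with 0.746 on leaving them out. By rho C3 with SERPING1 or CD55, C1S with C1R, SERPING1 or CD55, and CFB with CD55 did not pass (adjusted p = 0.0566 to 0.279). Without the 2 farthest samples r was 0.113 for C1S with CD55 and 0.153 for C1S with SERPING1. It was 0.230 for C3 with CD55, but 0.775 for SERPING1 with CD55.

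**Figure D4:**
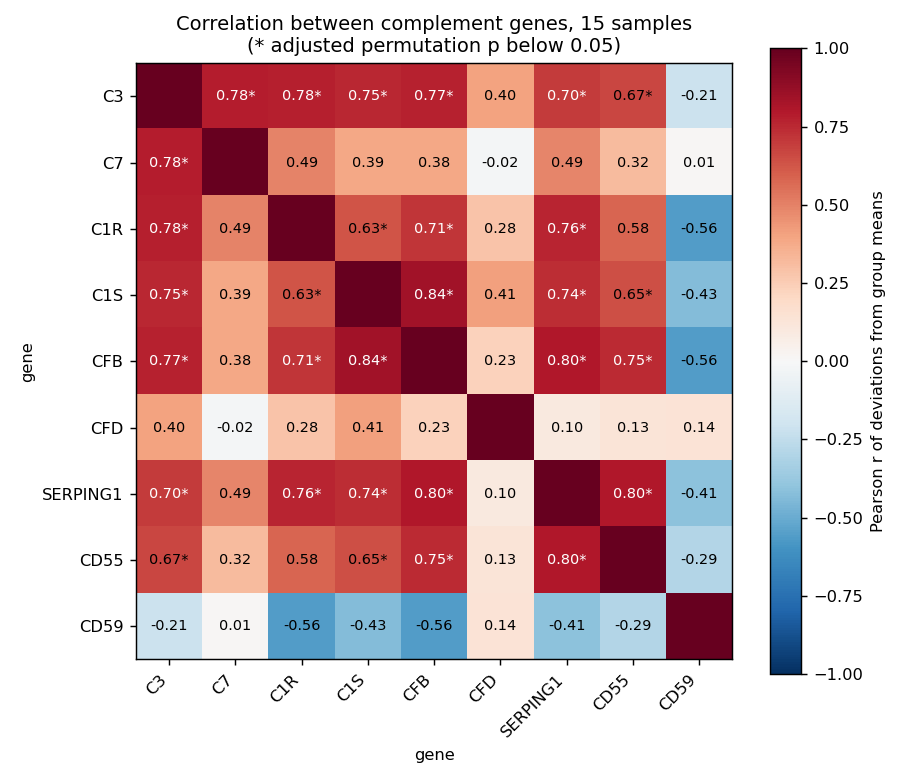
Pearson correlation between complement genes over 15 samples, as deviations from the group means. The block of C3, CFB, C1R, C1S, SERPING1 and CD55 is positive throughout, while CFD and CD59 stand outside it.

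Much of this agreement rested on 1 sample, young male 3, itself the mean of a near-identical pair of arrays. Without young male 3 only SERPING1 with CD55 passed (r = 0.772, adjusted p = 0.04), and not by rho (0.613, adjusted p = 0.196). Still, 27 of 36 pairs stayed positive, against 29 with that sample. Without old female 3, 10 pairs passed, and leaving out any other single sample left 12 to 18. Over all 21 samples 15 pairs passed, 14 of them positive. In the 6 divergent samples alone the levels themselves were compared, since a group held too few of them to take out its mean, so group differences enter and the count is not of the same kind. There 6 pairs passed by the exact permutation test (smallest p = 0.00278), and 25 of 36 were positive.

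CFB and C3 also moved with the actin ratio among the 15 samples. For CFB r was 0.881 (adjusted p = 0.00297 over 99 relations of the members with this ratio and 10 marker lists) and rho 0.893 (adjusted p = 0.00099), with r = 0.769 without the 2 farthest samples and 0.869 without young male 3 (adjusted p = 0.00198). For C3 r was 0.798 (adjusted p = 0.0214) and rho 0.750 (adjusted p = 0.0691). C1S at r = 0.782, CD55 at 0.761 and C1R at 0.714 passed too (adjusted p = 0.0214, 0.0214 and 0.0372), though none of C3, C1S, CD55 and C1R passed by rho. Without young male 3, C1S still passed (r = 0.740, adjusted p = 0.0287), while C3 (0.721, adjusted p = 0.0549), CD55 (0.669, adjusted p = 0.0787) and C1R (0.597, adjusted p = 0.11) did not. Over all 21 samples the CFB value was 0.392 (adjusted p = 0.28) and the C3 value 0.568 (adjusted p = 0.089), with C1S at 0.439 (adjusted p = 0.194), C1R at 0.402 (adjusted p = 0.274) and CD55 at -0.087 (adjusted p = 0.799), so that none of the 5 passed there. CD59 did not pass over the 15 samples (r = -0.556, adjusted p = 0.217) but ran against the ratio over the 21 (r = -0.693, adjusted p = 0.0148). The part of RNA quality in the spread of these genes was not tested beyond these values.

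**Figure D5:**
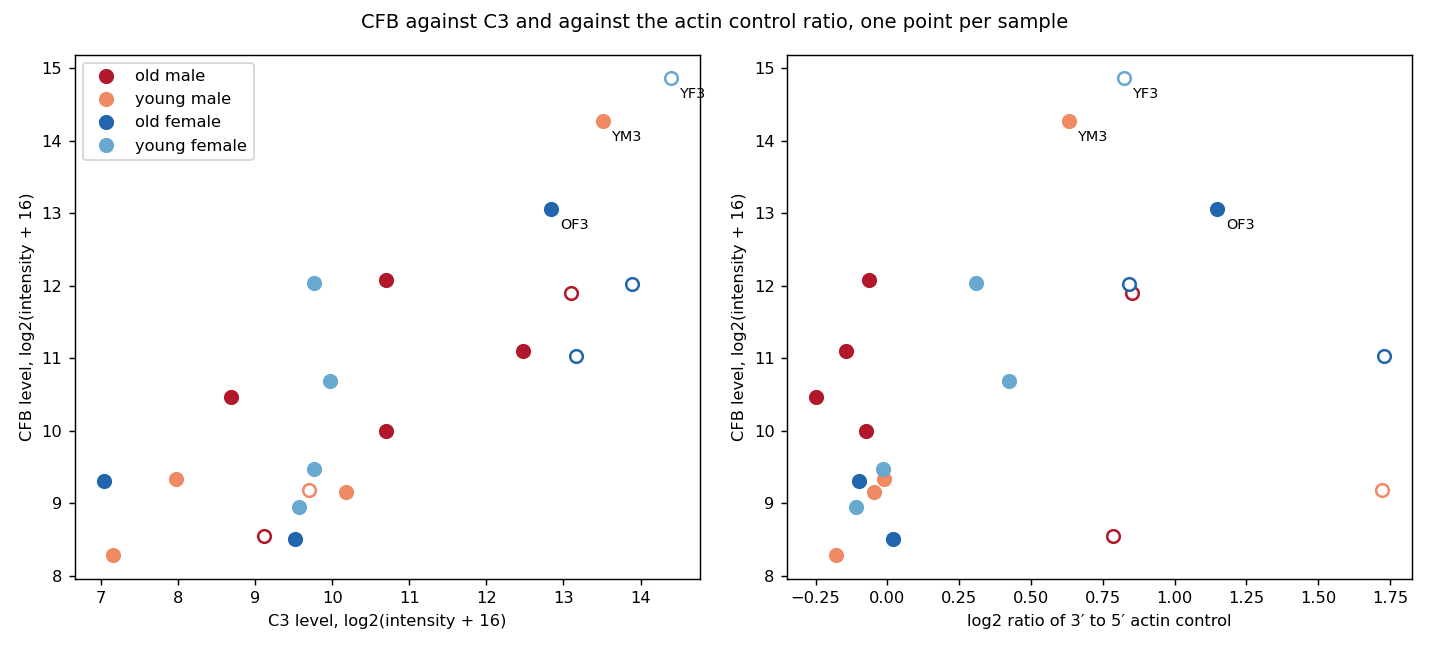
CFB level against C3 level (left, both log2(intensity + 16)) and against the log2 actin ratio (right), 1 point per sample, with open points for divergent samples. As deviations from group means, r outside the divergent samples was 0.767 with C3 and 0.881 with the actin ratio.

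Of the marker lists, CD55 followed the fibroblast list (4 of 5 tested, LUM below the median level) with r = 0.749 (adjusted p = 0.0214) and rho = 0.721 (adjusted p = 0.0691), and r was 0.763 over all 21 samples (adjusted p = 0.00891). CD59 ran against the endothelial list (5 of 5 tested) with r = -0.756 (adjusted p = 0.0214) and rho = -0.718 (adjusted p = 0.0691), and -0.452 over all 21 samples (adjusted p = 0.19). Both relations passed without young male 3 (r = 0.816 and -0.752, adjusted p = 0.0109 and 0.0335). Over the 21 samples CD59 passed with the smooth muscle list (r = 0.690, adjusted p = 0.0148). There it also ran against the B cell list, of which only MS4A1 was tested (-0.720, adjusted p = 0.0094), and the adipocyte list (-0.656, adjusted p = 0.021). Over the 15 samples none of these passed (adjusted p = 0.397, 0.817 and 0.0933). Without young male 3, CFB passed with the endothelial list (r = 0.790, adjusted p = 0.0213) and SERPING1 with the fibroblast list (0.821, adjusted p = 0.0104). CD55 passed there with the macrophage list too, of which 5 of 7 were tested (0.728, adjusted p = 0.0447). With young male 3 included, these relations had r = 0.666, 0.495 and 0.669 over the 15 samples. They passed neither there nor over the 21. CFD had r = -0.093 with the adipocyte list (adjusted p = 0.902), and 0.351 over all 21 samples (adjusted p = 0.363). The part of cell makeup in the members' levels was not tested.

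The genes most like each member over the same 15 samples were sought among 6943 genes, as a description with no test. C3 ran closest to DDX17 (r = 0.95), NSG1 (0.937) and KRT18 (0.926, a keratin of simple epithelia), and CFB to CYP1B1 (0.931), SLC39A8 (0.923) and MMP2 (0.909, a gelatinase of the matrix). SLC39A8, a metal ion transporter, was also among the nearest to C1S (0.906), with SGK1 (0.915) and MCFD2 (0.904). C1R ran with P4HB (0.916), TMED3 (0.901) and MRC2 (0.889), and C7 with the desmosome gene DSP (0.886), TBX3 (0.878) and ATP2C1 (0.869). LAMP2, a lysosomal membrane protein, was near both SERPING1 (0.889) and CD55 (0.913). SERPING1 had KIF1B (0.884) and PNP (0.843) beside it, and CD55 had AGGF1 (0.95) and CAPZA1 (0.88). CD59 ran with NAP1L1 (0.907), KCNA5 (0.883) and DCUN1D4 (0.869), and CFD with OSMR (0.816), SMU1 (0.815) and TRIM25 (0.813). Several of these likenesses were lost once the divergent samples were counted. Over all 21 samples SERPING1 had r = 0.00884 with LAMP2 and -0.186 with KIF1B (whose rho over the 15 was only 0.461), CD59 had -0.0197 with NAP1L1, CD55 had 0.307 with AGGF1 and C7 had 0.328 with ATP2C1. It was 0.856 or more for NSG1 and KRT18 with C3, P4HB with C1R, SLC39A8 with C1S and CFB, CYP1B1 with CFB and KCNA5 with CD59, and 0.41 to 0.775 for the other genes named.

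The remaining complement genes were listed apart from the members: of 47 listed, 39 were on the array by a probe set of 1 symbol and 16 were tested. In males 10 were higher and 6 lower, with 0 called and a median log2 change of 0.05, against -0.01 over all genes. In females 12 were higher and 4 lower, with 0 called and a median of 0.22, against -0.02. CFHR2, a factor H-related gene, had a log2 change of 0.83 ± 0.37 in males and C1QB, a chain of C1q, 0.67 ± 0.35 (exact permutation p = 0.0887 and 0.0173, limma adjusted p = 1 for both). Both were named for a small p in this same contrast, so the permutation values are no separate test. CFHR2 was lowest in young male 1, at 5.64, while the rest of that group lay at 6.90 to 8.18, and its change was 0.43 without that sample and 0.24 without the divergent samples. C5, the source of the C5a and C5b fragments, had 0.40 ± 0.22 in males and 0.47 ± 0.23 in females. The dim C5AR1, the C5a receptor, had -0.57 ± 0.32 in males. In females the dim CFHR4, MASP1, CR2 and C9 had 0.94 ± 0.39, 0.81 ± 0.44, 0.99 ± 0.55 and 0.38 ± 0.23, with limma adjusted p = 0.9983. CR2 stood at 9.13 in old female 6, a divergent sample, and at 4.72 to 5.07 in the other old females, and its change was 0.15 without that sample and 0.11 without the divergent samples, where C9 had 0.22.

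C6, the partner of C7 in the membrane attack complex, lay below the median level, so its values come from the fit with no filter. It stood at 8.59, 8.68, 7.56, 8.61, 7.99 and 10.09 in old males, against 5.96, 6.75, 6.83, 6.62 and 7.32 in young males. Every old male lay above every young male, which held for 0.288% of all probe sets in that fit. The change was 1.89 ± 0.42 (limma adjusted p = 0.693), and 0% of all probe sets passed the adjusted test there. The exact permutation test over 462 splits gave p = 0.00433. C6 was named for the smallest unadjusted p in males among the 39 other complement genes on the array, so these values repeat the contrast that picked it. Old females had 7.001, 7.83, 7.74, 7.70 and 6.25, against 7.65, 6.03, 7.18, 7.68 and 6.76 in young females, which overlapped, with a change of 0.24 ± 0.43. The difference between the changes was 1.65 (limma adjusted p = 1 over the same unfiltered fit).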

How the data were processed

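The authors deposited linear intensities, with 22277 probe sets on each array, 62 of them controls. Per the labels' protocols, RNA from phenol-chloroform extraction was turned into cDNA and carried a biotin label. The authors' probe summary and scaling are not given in the sources used here. Human probes read monkey RNA, which can lower a probe set's signal on all arrays alike.

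Intensities were converted to log2(intensity + 16) and quantile normalised. The pseudocount of 16 understates changes of dim genes. Probe sets at or above the median mean level were tested. For the 4 dim members and the dim C6, C5AR1, CFHR4, MASP1, CR2 and C9 a fit with no filter gave the values. Of all probe sets, 19064 had 1 symbol, 1043 several and 2108 none here; no probe set of several symbols held a member. A mean per group was fitted with limma 3.58.1 in R 4.3.3 (empirical Bayes with trend), with Benjamini-Hochberg adjustment over 11108 probe sets at 0.05. Errors of changes are standard errors.

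Arrays whose deviations correlated above 0.7 were averaged as 1 sample, where the design had 24 arrays. Samples whose arrays had median correlations under 0.85 were called divergent. Single values were tested with exact permutations, correlations with permutations (scipy 1.17.1). The fit was checked on simulated data.

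Replicate numbers come from the titles. Over 30 pairs of equal number in different groups, deviations correlated by -0.422 to 0.509 (mean 0.0622). Over 135 pairs of unequal number the range was -0.498 to 0.505 (mean -0.0011). No pairing by number was seen, though these ranges cannot exclude it.

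The members and the gene lists were chosen with earlier results of these data known. Named were all member probe sets, the other complement genes with the smallest p in each sex (up to 5) and the 3 genes most like each member. Alternatives were the pseudocount, scaling, filter, treatment of near-identical and divergent arrays, covariates, weights, a replicate block and leaving out each sample.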

Additional observations from a re-analysis of the deposited data

Results flagged for a closer look

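In 5 of 56 tested groups of complement levels, 1 sample stood apart from the rest of its group by more than Dixon's 95% critical value. The nominal rate is about 1 in 20. As the groups share samples and the share over all probe sets was not counted, no excess can be read from this count. For C3 the sample apart was young female 3, at 14.4 against 9.97 for the next sample, and for CFB it was young male 3, at 14.27 against 9.34. For SERPING1 it was young male 3, at 12.62 against 11.32, and young female 3, at 13.36 against 11.47. Old male 4 was low in SERPING1, at 10.54 against 11.47 for the next. Young female 3 and old male 4 are divergent samples, and young male 3 is not.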

How the results depend on the processing

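No member was called under any alternative run, by the adjusted test in males, in females, over both sexes or for the difference between the sexes. CD59 stands for its brighter probe set unless named otherwise. The changes below are those whose direction differed, with some larger moves that kept their direction. With 24 arrays counted as samples the log2 changes in males were -0.020 for C1S, -0.068 for CFB, -0.048 for SERPING1 and 0.016 for CD59, with C3 at 0.46, and in females -0.32 for C3, -0.011 for CFD and -0.21 for SERPING1. With the actin ratio as a covariate CFD was 0.080 in males, and in females C3 was -0.33 and CFD -0.21. With the adipocyte mean as a covariate the values in males were -0.0027 for C1S, 0.46 for CD59 and 0.046 by its dimmer probe set. In the same fit C3 had 0.22, CFB 0.17, C1R 0.036, C7 0.39, CFD -0.28 and CD55 0.55. With array weights CD59 was 0.14 in males, and in females C1R was 0.070, C1S 0.28, CFD -0.059 and CD55 0.12. On the deposited scale CD55 was 0.083 in females. With the divergent arrays as a block CD59 was 0.10 in males, and in females CFD was -0.12 and CD55 0.0059. With median-centred arrays CFD was -0.019 and CD55 0.0039 in females. With the replicate number as a block CD59 was 0.13 in males, with 0 members called. Without the divergent samples CD59 was 0.28, and 0.0016 by the dimmer probe set, in males, and in females C1R was 0.083, C1S 0.43, CFB 0.0031, CFD -0.21, CD55 0.38 and CD59 0.21 and 0.062. Leaving out each sample in turn gave, in females, -0.056 to 1.66 for C3, -0.98 to 0.50 for CFB, -0.34 to 0.23 for C1R, -0.23 to 0.40 for C1S, -0.13 to 0.20 for CFD and -0.34 to 0.26 for CD55, and in males -0.22 to 0.23 for CFD, -0.047 to 0.59 for CD55 and -0.16 to 0.15 for CD59. The causes were not tested. At an unadjusted limma p under 0.05, C7 passed in males in 5 alternatives (actin covariate, array weights, without old male 3, old male 5 or young male 3), where 3.19% to 10.9% of all tested probe sets did, and its difference between the sexes passed in 3 (actin covariate, without old male 3 or young male 3), where 1.83% to 5.18% did. By the exact permutation test 0 to 1 members passed at an unadjusted 0.05 on leaving out a sample, SERPING1 in females without young female 3 (0.56, exact p = 0.0476) and CFB in males without young male 3 (1.69, exact p = 0.0476), each the highest sample of its group for that gene, where 3.2% and 4.19% of all tested probe sets passed. The count of correlated pairs was 6 by levels in the divergent samples alone and 1 to 18 on leaving out each sample. The SD of C3 stayed within 2.06 to 2.42 and that of CFB within 1.69 to 2.22 over alternatives chosen after seeing the data. C6 in males ran from 1.59 to 2.10, with a limma adjusted p of 0.0526 (array weights) to 1. The number of arrays limits the precision, and dim probe sets carry little signal over background.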

Other observations

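Among the complement genes outside the members, 16 were set against C3 and CFB over the 15 samples, 32 relations in all. CFI, the protease that inactivates cleaved C3, followed C3 with r = 0.840 (permutation test, adjusted p = 0.00213) and rho = 0.843 (adjusted p = 0.00512), with 0.805 without the 2 farthest samples. Unlike most relations between members it passed also without young male 3 (r = 0.897, adjusted p = 0.00032). COLEC12, a scavenger receptor with a collectin domain, followed C3 with r = 0.810 (adjusted p = 0.00213) and rho = 0.811 (adjusted p = 0.0056), with 0.689 without the 2 farthest samples, and r = 0.786 without young male 3 (adjusted p = 0.0131). C2, the classical-route counterpart of factor B, followed CFB with r = 0.807 (adjusted p = 0.00213) and rho = 0.721 (adjusted p = 0.0367), with 0.678 without the 2 farthest samples, and r = 0.579 without young male 3 (adjusted p = 0.0974). In the RefSeq gene table for the macaque, C2 and CFB have 0 protein-coding genes between them. MASP2, a protease of the lectin route, ran against C3 with r = -0.695 (adjusted p = 0.029) and rho = -0.589 (adjusted p = 0.126), with -0.568 without the 2 farthest samples, but did not pass without young male 3 (r = -0.692, adjusted p = 0.0516). Over all 21 samples r was 0.735 for CFI with C3, 0.746 for COLEC12 with C3, 0.580 for C2 with CFB and -0.380 for MASP2 with C3, of which MASP2 did not pass (adjusted p = 0.218).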
